A study of Mus musculus with 5 samples.

Results

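The genes described here are 6 receptors of gut hormones, glucagon and nutrients: Glp1r, Gipr, Gcgr, Ffar1, Ghsr and Gpr119. They were chosen by symbol, without use of their values, from the 32285 genes of each count matrix, and all 6 were found. Islets of 5 NOD.Cg-Prkdcscid/J mice (genotype NOD.SCID) were picked by hand, and every mouse gave 1 droplet library of its own (10x 3' chemistry). Both diet groups carried the scid allele, so mature T and B lymphocytes are lacking in either, and the data come from islets outside an adaptive immune attack. The 3 chow mice were 8, 10 and 10 weeks old. The 2 mice given a 20% HC diet, understood here as hydrolyzed casein, were 7 and 9 weeks old. HC mouse 2 was titled as chow-fed, while its diet label and the count of mice in the series design place it with HC. Library names began with FUN for chow mouse 1 and HC mouse 1 and with SKY for the other 3 mice, and the labels give no meaning for the prefix. Nothing beyond separate mice is stated about how the replicates were made.

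Each of the 6 is a G protein-coupled receptor. GLP-1 and GIP, the incretins, are released from the gut after a meal and raise insulin secretion through receptors that couple to Gs and cAMP. Glucagon acts through a related receptor of the same class. Ffar1 (GPR40) senses long-chain fatty acids and acts mainly through Gq, Gpr119 senses lipid amides through Gs, and Ghsr is the receptor of ghrelin, the hunger hormone of the stomach.

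The 5 libraries held 28722244 to 39624978 UMIs (unique molecular identifiers, each standing for 1 captured RNA molecule) in 4452 to 6087 barcodes. After filters on UMIs, genes and mitochondrial share, 22744 cells remained, 3651 to 5122 per mouse, with medians of 5146 to 6958.5 UMIs per cell. Pairs of libraries shared 4 to 14 barcodes. Clusters were named from marker genes: 10751 beta, 4886 alpha, 2260 delta, 825 endothelial, 453 macrophage, 337 stromal, 289 ductal, 151 proliferating and 69 Schwann cells, each "-like" by markers only. Per mouse, insulin (Ins1 and Ins2) made up 61.4% to 69.2% of beta-cell UMIs, Gcg 37.8% to 44.2% of alpha-cell UMIs and Sst 19.8% to 23.6% of delta-cell UMIs. A further 848 cells led by Ppy kept no type name, with only 2 alpha and 2 PP markers among their leading genes. Ins2 in these cells was at 50.1% of its highest cluster level. Insulin UMIs were also found in cells of other types, at 10.8% to 26.8% of UMIs in macrophages, 19.2% to 36.4% in stromal cells and 0.656% to 3.77% in endothelial cells.

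The receptor genes lie on 5 chromosomes of GRCm38, as GENCODE M21 annotates them. Glp1r spans chr17:30901817-30940791 on the plus strand, Gipr chr7:19156061-19166127 on the minus strand and Gcgr chr11:120530699-120538986 on the plus strand. Ffar1 is a gene of 1 exon at chr7:30857390-30861564 on the minus strand. Ghsr lies at chr3:27371351-27378010 on the plus strand and Gpr119 at chrX:48667979-48674478 on the minus strand. Opposite-strand noncoding genes overlap exons of Glp1r (AC174471.1, AC165951.1) and of Gcgr (Gm11789). Whether counting used strand is not given in the sources used here, and how reads of those overlaps were assigned was not examined.

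RefSeq's promoter table (GRCm38.p6) matched 5 of the 6 genes; Gipr was not matched. The upstream stretches of Glp1r, Gpr119 and Ghsr are shown because these genes reached their highest level in different endocrine types: beta, alpha and delta cells. Each runs 5' to 3' on the gene's strand from base 250 to base 51 before RefSeq's start site. In the order of the genes just named they lie at chr17:30901617-30901816 (plus), chrX:48674529-48674728 (minus) and chr3:27371101-27371300 (plus), and none overlaps an annotated exon. The Glp1r stretch ends next to GENCODE's start at chr17:30901817, so the start sites of RefSeq and GENCODE differ for this gene. Capitals mark TAAT (the core of homeodomain sites), TGCTGA (the half-site of Maf factors) and TGACG (the half-site of the cAMP response element), on either strand.
Glp1r: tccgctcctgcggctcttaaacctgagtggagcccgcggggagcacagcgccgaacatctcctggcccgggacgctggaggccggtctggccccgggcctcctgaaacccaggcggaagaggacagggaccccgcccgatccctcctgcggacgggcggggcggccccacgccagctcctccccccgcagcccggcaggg
Gpr119: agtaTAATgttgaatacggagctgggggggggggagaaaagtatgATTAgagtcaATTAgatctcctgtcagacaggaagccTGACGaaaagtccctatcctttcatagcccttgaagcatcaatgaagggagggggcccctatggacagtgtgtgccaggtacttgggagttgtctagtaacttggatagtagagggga
Ghsr: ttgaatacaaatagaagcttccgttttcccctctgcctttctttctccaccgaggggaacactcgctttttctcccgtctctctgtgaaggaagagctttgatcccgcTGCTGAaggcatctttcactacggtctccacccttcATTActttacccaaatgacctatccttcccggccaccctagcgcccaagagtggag
The Glp1r stretch was 75.0% G and C and held none of these letters, which says only that they are not in this window. The Gpr119 stretch (48.5% G and C) held TAAT 3 times and TGACG once, and the Ghsr stretch (51%) held TAAT once and TGCTGA once. Marked motifs did not overlap each other. Among 32851 mouse upstream windows of the same length, 50.1% held TAAT, 13.1% TGCTGA and 12.7% TGACG; a match is a description of the letters only.

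Levels are given as CPM, the UMIs of a gene per 1000000 UMIs of a cell type, summed per mouse. Hormone UMIs are part of this total, so a level also depends on the hormone share of the type and mouse. The types come from clustering the same cells, with Glp1r among the leading genes of 3 of the 5 beta clusters, so differences between types are described and not tested. The 3' tags are not scaled by gene length, and levels are compared within a gene only.

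Glp1r, the GLP-1 receptor, was highest in beta cells. Its level there was 156.5, 126.4 and 121.8 CPM in chow mice 1, 2 and 3, and 150.5 and 121.4 in HC mice 1 and 2, a mean of 135.3 ± 16.9 (SD, n = 5). In CPM of all UMIs the FUN mice were the higher ones and the diets overlapped. At least 1 Glp1r UMI was seen in 65.9% ± 6.21 of beta cells and, after each cell was thinned to 3000 UMIs, in 33.9% ± 3.74. Delta cells followed among the endocrine types, with 30.2, 30.9 and 28.6 CPM on chow and 32.6 and 18.4 on HC, and no delta value reached a beta value. Alpha cells held 2.69 to 4.23. Stromal cells (12.0 to 57.9) and macrophages (26.2 to 53.0) had means above that of delta cells, with overlapping mice.

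UMIs in a cell that does not express a gene can come from free RNA or from a second cell in the droplet. As a measure of this, receptor UMIs were set beside the number that would go with a type's insulin UMIs at the beta-cell ratio of receptor to insulin. Delta cells held 169 Glp1r UMIs against 32.2 at that ratio. Alpha cells held 74 against 52.9, macrophages 50 against 48.8, stromal cells 58 against 59.6 and ductal cells 51 against 69.6. Endothelial cells held 13 against 5.28. In cells with under 2% of UMIs from hormones of other endocrine types, delta cells kept 114 Glp1r UMIs in 1847 cells, alpha cells 35 in 4403, stromal cells 2 in 223 and macrophages 0 in 275. Endothelial cells under that limit kept 4 in 663. The Glp1r UMIs of macrophages and stromal cells were thus at the level their insulin UMIs carry. Those of delta cells were 5.24 times that level, and those of endothelial cells 2.46 times, from 13 UMIs.

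Gipr, the GIP receptor, was found in all 3 endocrine types. Beta cells had 28.0, 23.7 and 22.5 CPM in chow mice 1 to 3 and 22.3 and 18.3 in HC mice 1 and 2. Alpha cells of chow mice had 10.7, 9.46 and 12.5 CPM and those of HC mice 17.0 and 12.6. Both HC mice lay below every chow mouse in beta cells and above every chow mouse in alpha cells, each time by a narrow margin to the nearest chow mouse. These directions were shared by 3.1% of all genes tested in beta cells and 19.7% in alpha cells. Delta cells ranged from 7.75 to 19.4, so that delta and beta values overlapped in CPM of all UMIs, as did alpha and delta values. Of those UMIs insulin took 61.4% to 69.2% in beta cells and Sst 19.8% to 23.6% in delta cells. Overlap per UMI other than hormones was not read. Alpha cells held 266 Gipr UMIs against 8.97 at the beta ratio, and delta cells 81 against 5.42; macrophages held 7 against 8.39. A Gipr UMI was seen in 18.3% ± 3.71 of beta cells, 5.09% ± 1.03 of alpha cells and 3.44% ± 0.622 of delta cells, at median depths of 8055, 3824.5 and 2367.5 UMIs, and in 0.284% ± 0.390 of endothelial cells at a median of 1309. After thinning to 3000 UMIs the endocrine shares were 6.94%, 3.59% and 4.10%. Shallower cells are left out of these shares. They rest on 10534 of 10751 beta cells, 3437 of 4886 alpha cells and only 570 of 2260 delta cells, so the types are not compared over all their cells.

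Gcgr, the glucagon receptor, was highest in beta cells. Its level was 13.8, 9.26 and 9.56 CPM on chow and 13.0 and 8.70 on HC. Chow mouse 1 and HC mouse 1, both FUN and lower in insulin share, were again the upper values in CPM of all UMIs. Delta cells had 2.21 to 6.17, below every beta value, with 26 UMIs against 2.70 at the beta ratio. Alpha cells, which make glucagon, held 6 Gcgr UMIs in 4886 cells against 4.28 at the beta ratio, and 2 in the 4403 cells low in other hormones. Endothelial cells held none in 825 cells, which allows a share of cells with a UMI of up to 0.364%.

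Ffar1 had 73.2, 48.6 and 55.1 CPM in beta cells of chow mice and 76.1 and 54.1 in those of HC mice. Alpha cells of chow mice had 9.14, 14.9 and 15.6 CPM and those of HC mice 18.1 and 12.8. Every beta value was above every alpha value, and alpha cells held 299 Ffar1 UMIs against 24.1 at the beta ratio. Stromal cells reached 66.8 CPM in 1 mouse, within the beta range, with 28 UMIs against 26.5 at that ratio. Delta cells held 16 against 15.1 and macrophages 28 against 21.8, close to the number their insulin UMIs carry. After thinning to 3000 UMIs an Ffar1 UMI was seen in 17.2% ± 3.16 of beta cells and 3.60% ± 0.690 of alpha cells (unthinned, 40.5% and 5.65%).

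Gpr119 was highest in alpha cells, at 51.7, 36.1 and 41.2 CPM on chow and 41.3 and 28.0 on HC. Beta cells had 0.942 to 2.19 and delta cells 0.737 to 2.65, all far below the lowest alpha value. The 151 proliferating cells, a cluster with 8.77% to 23.2% of UMIs from Gcg, had 13.8 to 33.4, which overlapped the alpha range. A Gpr119 UMI was seen in 14.8% ± 3.31 of alpha cells and 1.10% ± 0.207 of beta cells (after thinning, 10.7% and 0.400%).

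Ghsr, the ghrelin receptor, was the only one of the 6 with its highest level in delta cells, which make somatostatin. Delta cells had 16.3, 9.70 and 13.0 CPM on chow and 13.2 and 22.1 on HC, from 11 to 30 UMIs per mouse. Across all 10751 beta cells 1 Ghsr UMI was counted, and across all alpha cells 4. Proliferating cells followed with 0 to 6.41 CPM, below every delta value. A Ghsr UMI was seen in 3.91% ± 1.32 of delta cells, and its count over all kept cells was 161, so its values have the widest counting error of the 6.

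**Figure D1:**
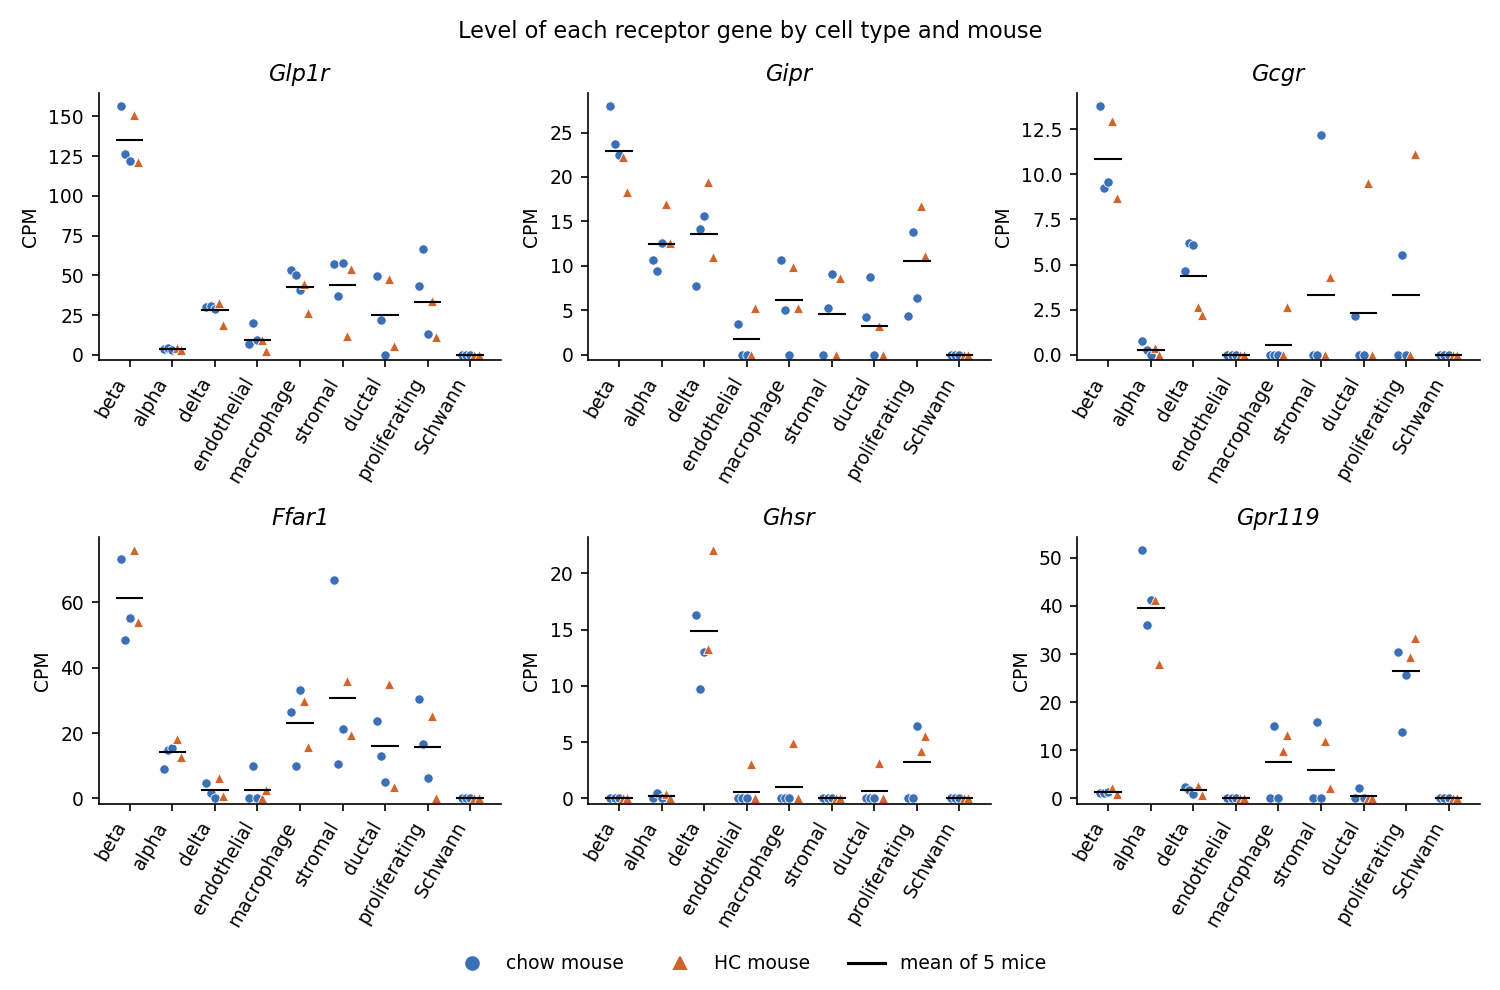
CPM within a cell type (vertical axis, linear, own scale per gene) for each receptor gene in 9 named cell types; points are mice (circles chow, triangles HC) and bars the mean of 5 mice. Glp1r, Gipr, Gcgr and Ffar1 had their highest mean in beta cells, Gpr119 in alpha cells and Ghsr in delta cells.

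The plot of observed against insulin-linked UMIs shows which non-beta values stand above the number that goes with insulin RNA. For Ghsr and Gpr119 the measure is not used, because beta cells held only 1 and 124 UMIs of them.

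**Figure D2:**
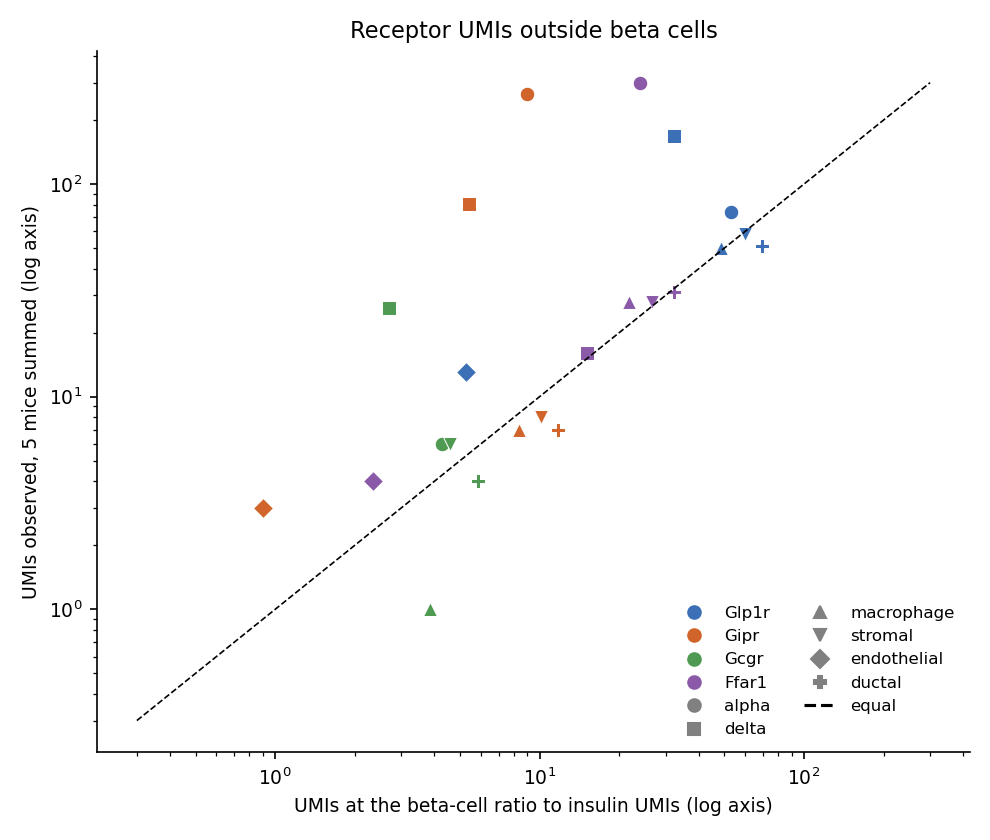
Observed UMIs of 4 receptor genes summed over 5 mice (vertical, log axis) against the number at the beta-cell ratio of receptor to insulin UMIs (horizontal, log axis), for 6 cell types other than beta; pairs with no UMI are not drawn and the dashed line marks equality. Gipr in alpha and delta cells, Ffar1 in alpha cells, and Glp1r and Gcgr in delta cells lie well above the line, and the macrophage, stromal and ductal points of Glp1r and Ffar1 lie near it. The endothelial point of Glp1r lies above the line, at 13 UMIs against 5.28.

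Within beta cells the receptors were spread over all 5 clusters. Cluster means of Glp1r were 122.0 to 161.3 CPM, of Gipr 20.8 to 26.6, of Gcgr 9.93 to 12.1 and of Ffar1 59.7 to 68.6. The cluster with the highest Glp1r mean, led by Car15, Ucn3 and Glp1r itself, also had the highest means of the other 3, although mice overlapped between clusters: its Glp1r ran from 135.1 to 204.5, against 107.6 to 135.5 in the cluster with the lowest mean. This did not hold for Gcgr when the receptors were left out of the genes used for clustering. The cluster led by Car15, Ucn3 and Glp1r then had the highest means of Glp1r (154.9), Gipr (25.5) and Ffar1 (67.2). Gcgr was highest in another cluster, at 11.6 against 11.4, and Gipr there was 25.4. Of beta cells, 17.5% held no UMI of Glp1r, Gipr, Gcgr or Ffar1, 42.7% held UMIs of 1 of them, 30.9% of 2, 8.20% of 3 and 0.735% of all 4. The median depth rose alongside, from 7101 UMIs in cells with none to 13735 in cells with all 4, and the part of depth in this order was not tested. Gipr was seen in 19.5% of beta cells with a Glp1r UMI and 15.6% of the others, whose median depths were 8436 and 7417 UMIs.

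The genes whose pattern was most like each receptor's were found by Pearson's r of log2(CPM + 1) over 45 sums (9 types in 5 mice). The sums share libraries and mostly separate the types, so r describes a shared pattern across types. Glp1r was most like Pcsk1 (r = 0.925), the proinsulin convertase, then Prss53 (0.901), Vstm2l (0.899), Papss2 (0.895) and the prolactin receptor Prlr (0.893). Ffar1 was most like Nkx6-1 (0.883), a beta-cell transcription factor, then G6pc2 (0.875), Car15 (0.854) and Ddc (0.851), with T2 (0.864) between them. For Gipr the nearest were the potassium channel gene Kcnh2 (0.859), Slc7a14 (0.847), A230057D06Rik (0.828), Nipal1 (0.823) and Scnn1b (0.821). Gcgr had the weakest likeness, to the calcium pump Atp2a2 (0.727), Bhlha15 (0.705), Spock1 (0.698), Adra2a (0.676) and Ogdhl (0.671). Gpr119 was most like Galnt13 and the alpha-cell factor Irx1 (both 0.906), Ctxn2 (0.888) and Vgf (0.874), and Ghsr like Fstl5 (0.878), Lmo3 (0.872), Kctd8 (0.863), Oit1 (0.851) and Kcnd2 (0.846).

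None of the 6 receptors passed the test of HC against chow in any cell type. Counts summed per mouse were compared with edgeR's quasi-likelihood test over all genes of a type, with an adjusted p under 0.05 as the threshold. Enough counts for a test were found in 14 pairs of receptor and type: 5 receptors in beta cells, 4 in alpha cells, 3 in delta cells, and Glp1r in macrophages and stromal cells. The background was low too: the share of all tested genes past the threshold was 0.00843% in beta cells (1 of 11867), 0.0749% in alpha cells (8 of 10688), 0.0223% in delta cells (2 of 8977), 0% in macrophages (0 of 2383) and in stromal cells (0 of 2674), and 0.0369% in endothelial cells (2 of 5413), where no receptor could be tested. In macrophages and stromal cells 71 and 42 genes had an unadjusted p under 0.05 by edgeR, and DESeq2 called 0 in either. With 3 and 2 mice, a p that misses the threshold does not show that the diets gave equal levels.

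In beta cells the log2 ratio of HC to chow was -0.35 ± 0.106 (SE) for Gipr, with an unadjusted p of 0.00484 and an adjusted p of 0.746 (edgeR). It was -0.05 ± 0.0914 for Glp1r, -0.07 ± 0.137 for Gcgr, 0.08 ± 0.104 for Ffar1 and 0.30 ± 0.322 for Gpr119. In CPM of all UMIs, Gipr alone of the 5 had HC mice that did not overlap with chow mice. Its direction, HC entirely below chow, was shared by 3.1% of all genes tested in beta cells (6.1% lay entirely above). As CPM of UMIs other than hormones, Gipr had 63.7 ± 0.138 (SD) in HC mice and 82.2 ± 2.77 in chow mice. Glp1r had 426.2 ± 4.12 and 447.8 ± 13.6. The HC mean of Gcgr was also the lower one, and those of Ffar1 and Gpr119 were the higher ones. Overlap of single mice was not read in this measure, so Gipr is not shown to be alone there. Within the FUN libraries the log2 ratio of Gipr was -0.33 and within the SKY libraries -0.34. In cells thinned to 3000 UMIs, a Gipr UMI was seen in 6.02% ± 0.779 of beta cells of HC mice (SD, n = 2) and 7.55% ± 0.820 of chow mice (SD, n = 3), with an exact two-sided permutation p of 0.1, the smallest that the 10 splits of 5 mice allow, and 0.6 after adjustment over 12 pairs.

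In alpha cells Gipr had a log2 ratio of 0.36 ± 0.212 (adjusted p = 0.779, edgeR). The 2 HC values exceeded the 3 chow values, a pattern shared by 19.7% of all genes tested in alpha cells (5.23% had the opposite one), and HC mouse 2 exceeded the highest chow mouse only slightly (12.56 against 12.52 CPM). The ratio was 0.66 within FUN and 0.19 within SKY. Gpr119 in alpha cells had -0.40 ± 0.177 (unadjusted p = 0.0378, adjusted p = 0.715), and its diets overlapped, since HC mouse 1 exceeded chow mice 2 and 3. Within FUN it was -0.32 and within SKY -0.46, and with HC mouse 2 grouped as its title says it was -0.02. Leaving out HC mouse 2 gave -0.18, leaving out chow mouse 1 gave -0.25 and leaving out HC mouse 1 gave -0.69. A term for age gave -0.71, and adjusted p ran from 0.279 to 1.00 over 18 alternatives. Ffar1 in alpha cells had 0.15 ± 0.232 and Glp1r -0.22 ± 0.374, from 9 to 21 Glp1r UMIs per mouse. Gcgr and Ghsr in alpha cells were below the count filter, as were Ghsr in beta cells and Gcgr, Ffar1 and Gpr119 in delta cells.

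In delta cells the log2 ratio was -0.26 ± 0.257 for Glp1r, 0.27 ± 0.365 for Gipr and 0.45 ± 0.332 for Ghsr, each with an adjusted p of 0.999 (edgeR). The diets overlapped for all 3, beside 8.88% of all genes tested in delta cells with HC entirely above chow and 8.19% entirely below. The prefixes gave opposite signs for all 3: Ghsr had -0.30 within FUN and 0.96 within SKY, Gipr 1.32 and -0.43, and Glp1r 0.11 and -0.69. The Glp1r value turned to 0.11 without HC mouse 2. For Ghsr, thinned shares were 6.70% ± 0.551 in HC mice and 3.64% ± 1.34 in chow mice (exact permutation p = 0.1, adjusted 0.6), over the 570 of 2260 delta cells that reached 3000 UMIs, while the unthinned shares were 4.34% and 3.62%. Glp1r had -0.60 ± 0.521 in macrophages and -0.35 ± 0.531 in stromal cells. Those UMIs were the ones that matched the insulin-linked number, and the stromal ratio was 0.0037 without HC mouse 1 and -2.32 with HC mouse 2 grouped as its title says (adjusted p = 0.894), where the HC group holds 1 mouse with 1 Glp1r UMI.

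**Figure D3:**
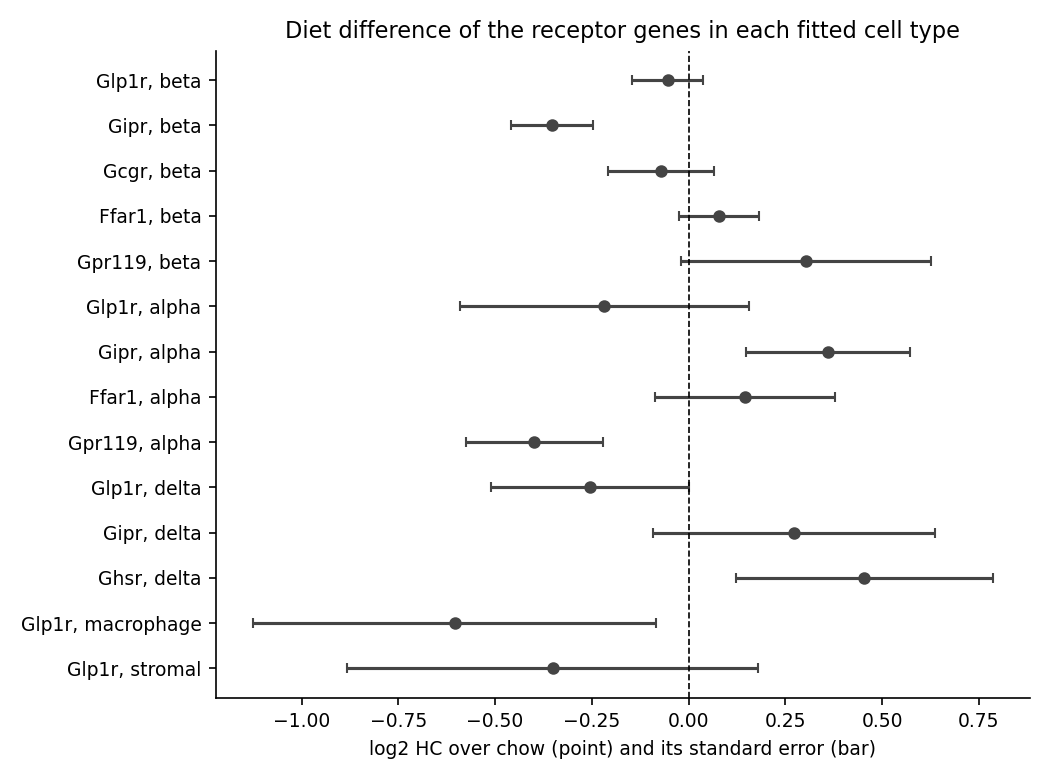
Log2 ratio of HC to chow (horizontal axis; points, with bars of 1 standard error from edgeR) for the 14 tested pairs of receptor and cell type (vertical axis). None passed the adjusted threshold, and the Gipr points of beta cells (-0.35) and alpha cells (0.36) lie on opposite sides of 0.

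Whether the diet difference itself differed between types was tested as an interaction, with the mouse as a block, for the 8 combinations in which a receptor was tested in both types. For Gipr, beta minus alpha was -0.71 ± 0.212 on the log2 scale (unadjusted p = 0.00074, adjusted p = 0.153, edgeR), which missed the threshold. The background of this comparison was 0.269% of genes (34 of 12635). Its adjusted p ran from 0.0671 to 0.926 over 15 alternatives, and its value was negative in each. For Gpr119, beta minus alpha was 0.69 ± 0.303 (adjusted p = 0.669). Glp1r differed by 0.16 ± 0.320 between beta and alpha cells and 0.20 ± 0.230 between beta and delta cells (background 0.0937%), and Ffar1 by -0.06 ± 0.184 between beta and alpha cells. The Gipr difference between beta and delta cells was -0.62 ± 0.342 (adjusted p = 0.976), and leaving out HC mouse 1 gave -0.20, chow mouse 1 gave -0.35 and HC mouse 2 gave -1.01. The title's grouping gave -0.96, and the lowest adjusted p of this difference over 14 alternatives was 0.794. For the same gene the difference between alpha and delta cells was 0.04 ± 0.389 (background 0.045%).

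**Figure D4:**
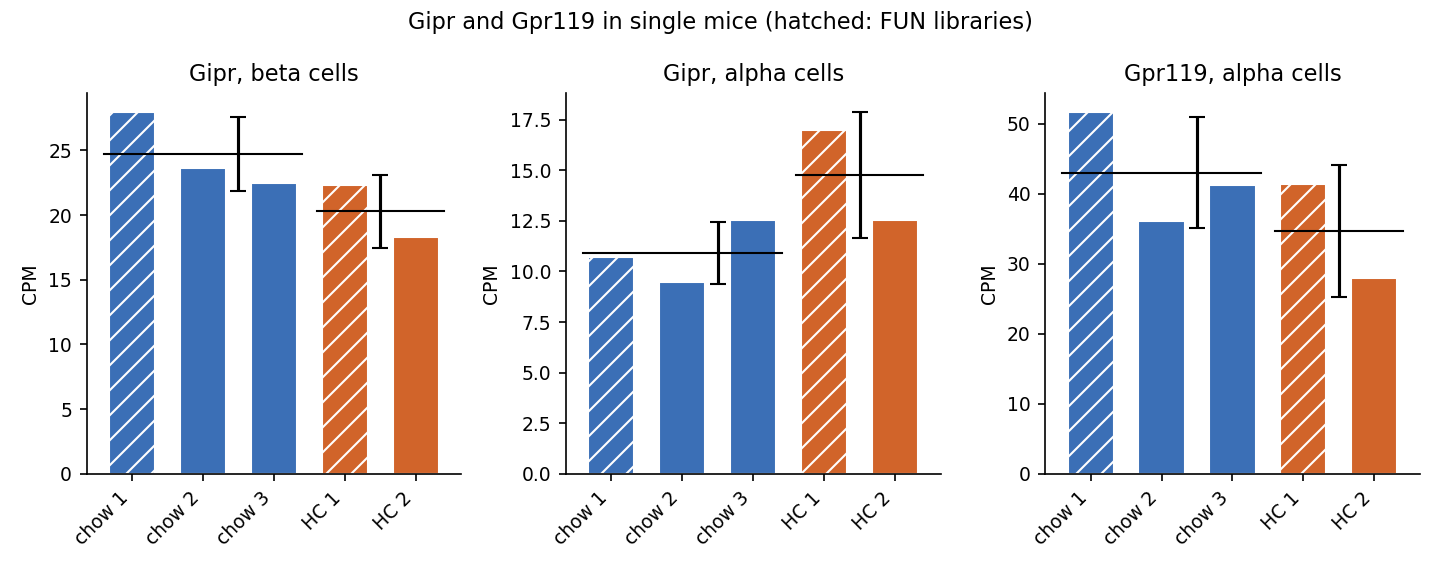
CPM (vertical axes, from 0) of Gipr in beta cells, Gipr in alpha cells and Gpr119 in alpha cells, 1 bar per mouse, with horizontal lines for group means and error bars of 1 SD (n = 3 chow, n = 2 HC); hatched bars are FUN libraries. For Gipr both HC mice are below all chow mice in beta cells and above them in alpha cells, and for Gpr119 the diets overlap. Of all genes tested, 3.1% lay entirely below in beta cells and 19.7% entirely above in alpha cells.

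The genes around these receptors were taken from 7 lists chosen by role, and none of their members passed the test in beta, alpha or delta cells. Among ligands and their processing enzymes, 4 of 8 genes could be tested in beta cells, with a median log2 ratio of 0.07. Pcsk1 had 115.9, 93.9 and 124.8 CPM on chow and 128.7 and 127.1 on HC (log2 ratio 0.14 ± 0.133). Of the Gs and cAMP genes 18 of 25 were tested in beta cells (median -0.02) and 19 of 25 in alpha cells (median 0.06). Of the Gq genes, which act below Ffar1, 13 of 16 were tested in beta cells, with 12 above 0 and a median of 0.13, beside 50.2% above 0 and a median of 0.00 over all genes. In the other endocrine types the Gq genes were near that share, with 6 of 11 above 0 in alpha cells (median 0.02), where Ffar1 was also found, and 6 of 10 in delta cells (median 0.10). In beta cells Plcb4, a phospholipase C, had 0.36 ± 0.118 and the protein kinase C gene Prkcb 0.30 ± 0.109, with adjusted p of 0.859 and 0.936 (edgeR). In alpha cells the Gq gene of smallest p, Prkcd, had the opposite sign, at -0.96 ± 0.316 (adjusted p = 0.614).

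Among the phosphodiesterases, which break down cAMP and cGMP, 8 of 15 were tested in beta cells (median -0.0021). Pde1c had 5.69, 3.28 and 5.38 CPM on chow and 8.57 and 7.53 on HC, without overlap, as for 6.1% of all genes tested in beta cells, with 0.71 ± 0.184 (adjusted p = 0.594). In delta cells Pde1c had 0.63 ± 0.258 (adjusted p = 0.999), and in alpha cells Pde10a had -0.47 ± 0.127 (adjusted p = 0.404). Of the desensitization genes 10 of 11 were tested in beta cells, with 6 above 0 and a median of 0.05. The receptor kinase gene Grk5 had 0.23 ± 0.119 and Rgs16 the opposite sign, at -0.30 ± 0.183.

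The cAMP-response targets, mostly immediate early genes, had medians below 0 in all 3 endocrine types: -0.28 over 10 of 12 genes in beta cells, -0.22 over 11 in alpha cells and -0.18 over 7 in delta cells. Dusp1, a phosphatase of MAP kinases, had 43.6, 30.6 and 28.0 CPM in beta cells of chow mice and 27.1 and 22.1 in those of HC mice, a log2 ratio of -0.52 ± 0.117 (adjusted p = 0.378). Nr4a1 had -0.77 ± 0.245 in beta cells (adjusted p = 0.824), Crem -0.44 ± 0.151 in alpha cells (adjusted p = 0.616) and Fos -0.52 ± 0.154 in delta cells (adjusted p = 0.999), while Egr1 in alpha cells had 0.27 ± 0.117. Above 0 were 2 of 10 genes in beta cells, 5 of 11 in alpha cells and 2 of 7 in delta cells, beside 50.2%, 49.9% and 49.6% of all genes tested in these types, so the alpha-cell share was near that of all genes.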

How the data were processed

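Islet cells of 5 mice were profiled with single-cell 3' v3 libraries. The values are raw UMI counts per gene and barcode, as deposited by the authors. Per the submitters' processing notes they used Cell Ranger 4.0.0 and mm10; the annotation release is not given in the sources used here. Gene symbols came from GENCODE M21. Barcodes with at least 1000 UMIs, 500 genes and at most 15% mitochondrial UMIs were kept. Scrublet called 14 doublets (0.062%), so doublet calling had not worked and mixed droplets remain. Cells were scaled to 10000 UMIs, reduced over 2000 variable genes to 30 components and clustered in scanpy 1.11.5 (Leiden, igraph 0.11.9, resolution 1, 15 neighbours). A cluster was named from at least 3 markers of a type among its 10 leading genes, with the next type at 0.5 of that number or fewer, and was left unnamed where a hormone foreign to the type came to 50% of the highest cluster's; 2723 cells (12.0%) stayed unnamed, among them the Ppy-led cluster, so PP cells were not compared. Of 3 forms of the clustering tried, the one used was settled after cluster names and their leading genes were seen, and before any diet test. The types planned for comparison (beta, alpha, delta, macrophage, endothelial and stromal), each with at least 20 cells in every mouse, were summed per mouse and tested two-sided with edgeR 4.0.16 in R 4.3.3 (TMM, filterByExpr, robust quasi-likelihood, Benjamini-Hochberg). Ductal and proliferating cells had at least 20 cells in every mouse too, but no comparison of them was planned; ductal cells were fitted once, with 0 genes called, and left out. Shares of cells were compared by exact permutation over 10 splits, in types with at least 20 cells of 3000 UMIs in every mouse, a limit added after seeing the data. Intervals and limits cover counting error only. The members, lists and tests were chosen with earlier results of these data known. Named genes were the 6 receptors, the 5 most alike genes of each (among those with at least 10 CPM in its highest type) and the 2 genes of smallest p per list and type; 1 gene under this rule is not reported here. Scripts were tested on simulated data. Alternatives are named in the closing section; the values within FUN and SKY and in cells low in other hormones were added to the diet comparison after seeing the data.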

Additional observations from a re-analysis of the deposited data

How the results depend on the processing

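No paired analysis of HC and chow mice was possible because the labels give the mice no replicate numbers. The numbers used here follow the order of the samples in the series and only name the mice. Only the differences between types used the mouse as a block. None of the 22 diet and interaction values of single receptors passed the threshold under any alternative (lowest adjusted p 0.0671, edgeR), and 8 kept their sign throughout, Gipr in beta cells (-0.38 to -0.30) and in alpha cells (0.14 to 0.53) among them. The cause of each change below was not tested. Values that kept their sign but moved by over 1.5 times included the following. The title's grouping gave 0.72 for Gpr119 and 0.16 for Ffar1 in beta cells, 0.37 for Ffar1 and -0.02 for Gpr119 in alpha cells, 0.67 for Gipr in delta cells, and -0.052 and -2.32 for Glp1r in macrophages and stromal cells. Age as a term gave -0.25 for Gcgr and 0.15 for Gpr119 in beta cells, -0.43 for Glp1r, 0.24 for Gipr, 0.25 for Ffar1 and -0.71 for Gpr119 in alpha cells, and -0.45 for Glp1r in delta cells. The stricter cell filter gave -0.14 for Gcgr in beta cells, 0.47 for Ffar1 in alpha cells, -0.58 for Glp1r and 0.45 for Gipr in delta cells and -0.56 for Glp1r in stromal cells. Resolution 0.5 gave -0.71 for Glp1r and 0.22 for Gipr in alpha cells, and equal cell numbers gave 0.19 for Gpr119 in beta cells and -0.059 for Glp1r and 0.23 for Gipr in alpha cells. Glp1r in stromal cells fell below the count filter without chow mouse 3, without HC mouse 2, with hormone UMIs left out of the library size and with equal cell numbers. Grouping HC mouse 2 by its title turned Gcgr in beta cells to 0.090, Glp1r in alpha cells to 0.12 and in delta cells to 0.26, and Ghsr in delta cells to -0.25, and the differences between types to -0.18 (Glp1r, beta against alpha), -0.32 (Glp1r, beta against delta) and -0.20 (Gipr, alpha against delta). Genes called were then 4 in beta, 36 in alpha and 19 in endothelial cells, and 12 and 6 for beta against alpha and delta. With age as a term, Ffar1 in beta cells was -0.051 and Glp1r in stromal cells 0.026, with 15 genes called in beta cells, 1 in macrophages and 6 in endothelial cells. With prefix as a term, 20 and 4 genes were called in beta and endothelial cells. Without the 6% of highest doublet scores, Glp1r in alpha cells was 0.035, and the differences were -0.080 (Glp1r, beta against alpha), 0.013 (Ffar1, beta against alpha) and 0.22 (Glp1r, alpha against delta, 8 genes called). At resolution 0.5, where delta cells had no name, Ffar1 in alpha cells was -0.066 and its difference between beta and alpha 0.16, with 1, 2 and 18 genes called in alpha cells, macrophages and beta against alpha. With equal cell numbers, Glp1r was -0.017 for beta against alpha and 0.30 for alpha against delta, with 2, 0 and 16 genes called in macrophages, endothelial cells and beta against alpha. The stricter cell filter gave 0.35 (Glp1r) and -0.16 (Gipr) for alpha against delta, with 9 and 2 genes called for beta against alpha and delta, and clustering without the receptors and list genes gave 0.097 (Glp1r, alpha against delta). DESeq2 called 11, 4, 1 and 0 genes in beta, alpha, delta and endothelial cells. Without the filter on low counts, 52, 31, 4, 10, 13 and 6 were called in beta, alpha, delta, macrophage, endothelial and stromal cells. In cells low in other hormones 0 were called in endothelial cells.

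Leaving out 1 mouse at a time gave 0 to 11 called genes in beta cells, 1 to 21 in alpha cells, 0 to 3 in delta cells, 0 to 6 in macrophages, 1 to 27 in endothelial cells and 0 to 6 in stromal cells, and 14 to 38, 2 to 15 and 1 to 10 for beta against alpha, beta against delta and alpha against delta. The highest counts came without HC mouse 2 in beta, alpha and endothelial cells (11, 21 and 27). Log2 ratios then ran from -0.21 to 0.049 for Gcgr, -0.015 to 0.16 for Ffar1 and -0.23 to 0.67 for Gpr119 in beta cells, -0.11 to 0.34 for Ffar1 in alpha cells, -0.68 to 0.11 for Glp1r, -0.14 to 0.63 for Gipr and -0.0040 to 0.77 for Ghsr in delta cells, and -0.47 to 0.0037 for Glp1r in stromal cells. They kept their sign from -0.69 to -0.18 for Gpr119, 0.14 to 0.53 for Gipr and -0.51 to -0.0078 for Glp1r in alpha cells and from -0.88 to -0.29 for Glp1r in macrophages. Differences ran from -0.057 to 0.47 (Glp1r) and -0.23 to 0.23 (Ffar1) for beta against alpha, -0.17 to 0.62 (Glp1r) for beta against delta, and -0.13 to 0.16 (Glp1r) and -0.17 to 0.31 (Gipr) for alpha against delta. Those of Gipr ran from -0.91 to -0.48 for beta against alpha and -1.01 to -0.20 for beta against delta. Differences of thinned shares (HC minus chow, percentage points) ran from -3.60 to 2.32 for Glp1r, -0.74 to 0.64 for Gcgr, -1.14 to 3.93 for Ffar1 and -0.076 to 0.36 for Gpr119 in beta cells, -0.13 to 0.094 for Glp1r and -0.048 to 0.92 for Ffar1 in alpha cells, and -1.09 to 5.95 for Gipr in delta cells. Thinned to 5000 UMIs, Glp1r in alpha cells was -0.025 and Ghsr in delta cells -4.62, where a mouse had as few as 6 cells. As CPM of UMIs other than hormones, beta cells had 439.1 Glp1r, 74.8 Gipr, 34.9 Gcgr and 197.8 Ffar1, delta cells 21.1 Ghsr and alpha cells 72.2 Gpr119, and the order of types was not read from these. Thinning to 3000 UMIs gave shares of 33.9% (Glp1r), 6.94% (Gipr), 3.28% (Gcgr) and 17.2% (Ffar1) of beta cells and 10.7% (Gpr119) of alpha cells, in place of 65.9%, 18.3%, 9.02%, 40.5% and 14.8%. Depth limits Ghsr most: 161 UMIs were counted in all.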

Other observations

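Other nutrient receptors of the chosen lists showed their own order over the islet types, described here and not tested. Ffar4 (GPR120), a second receptor of long-chain fatty acids, had 101.5, 101.4 and 98.8 CPM in delta cells of chow mice and 87.3 and 92.8 in those of HC mice. Both HC mice lay below all chow mice, as they did for 8.19% of all genes tested in delta cells, and the log2 ratio was -0.16 ± 0.153 (adjusted p = 0.999, edgeR). Alpha cells had 33.1 to 55.1 Ffar4 CPM and beta cells 1.15 to 1.67. Ffar1 and Ffar4, which share ligands, thus had their highest levels in different types, beta cells for the former and delta cells for the latter. Ffar3, a receptor of short-chain fatty acids, had 4.83 to 8.10 in beta cells and 1.83 to 2.35 in alpha cells.

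Mrap2, an accessory protein that is known to bind the ghrelin receptor, had no UMI in any of the 2260 delta cells, which allows a share of delta cells with a UMI of up to 0.133%, while beta cells had 1.11 to 1.84 CPM. The unnamed Ppy-led cluster differed between mice. In chow mouse 1 and HC mouse 1 Ppy was 1.16% and 1.12% of its UMIs, and insulin 49.2% and 46.1%. In the SKY mice Ppy was 14.4% to 21.5% and insulin 26.1% to 30.5%. Pooled over mice, this cluster had 393 Glp1r UMIs (32.1 to 81.8 CPM) against 473.3 at the beta ratio to insulin. It held 69 Gpr119 UMIs (6.18 to 12.7 CPM) and 114 Gipr UMIs against 80.8 at that ratio.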
